A study of Mus musculus with 6 samples.

Results

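Osm and Lif are neighbouring cytokine genes of mouse chromosome 11, and the transcription start sites of a window around them are described here in Ba/F3 cells. Ba/F3 is a mouse pro-B cell line, normally dependent on interleukin-3, that is widely used to study oncogenic kinases. The start sites were mapped by cap analysis of gene expression (CAGE), in which each tag is the capped 5′ end of an RNA and a peak of tags marks a transcription start site. The window took in every listed peak of chromosome 11 that starts at or after 4120000 and ends at or before 4220000, which gave 26 of the 158966 peaks of the series, 21 on the plus strand and 5 on the minus strand. The locus was chosen with its group differences already known, above all that of the plus-strand peak ending at 4216171. Differences between the groups within the window are therefore a description: calls of the fit across the series are counted for its peaks, but no p-value is given for them and nothing rests on those counts.

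The series holds 6 libraries in 2 groups of 3. The first expresses FLT3-ITD, a form of the receptor tyrosine kinase FLT3 with an internal tandem duplication. The second expresses FLT3-ITD/D835Y, which adds a substitution in the activation loop of that kinase, and is called the double mutant. A second label numbers the substituted position differently in each library of this group, so the titles were used. Both groups share the parental cell line (given as BALB/c) and a serum-containing medium for which no cytokine or drug is named. The labels do not say whether each line is 1 clone, what drives the transgene, or whether replicates came from separate cultures, so the spread between replicates may be technical.

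Oncostatin M, encoded by Osm, and leukaemia inhibitory factor, encoded by Lif, are secreted cytokines of the interleukin-6 family. Both signal through receptors that contain gp130, the shared chain encoded by Il6st, and activate JAK kinases and STAT3. Lif is best known for keeping mouse embryonic stem cells undifferentiated, and Osm is known in blood cells as a gene induced through STAT5, the transcription factor that interleukin-3 and FLT3-ITD both activate.

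The files name peaks by position and strand and give no gene. The submitters' processing notes name mm9 as the mouse build, with no role given, and the positions of Osm and Lif belong to that build. In the RefSeq gene table, which follows GRCm38.p6, Osm and Lif are adjacent with 0 genes between them, and their annotated starts are 20783 bp apart. Among the Osm and Lif peaks the spacing closest to this was 20782 bp, between those at 4136802 and 4157584. Coordinates were not converted between builds, and the peaks away from these starts were assigned to no gene. For the same reason the receptors, kinases and STAT genes of the pathway could not be described, and pro-B cell markers could not be checked.

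No promoter sequence of Osm was found in the reference used, so only that of Lif is given. The Lif peak held CAGE tags in all 6 libraries, and the sequence before the annotated Lif start is shown. It comes from RefSeq, build GRCm38.p6, chr11:4257318-4257567, plus strand, and holds the 250 bases before the annotated start, written 5′ to 3′, with the capitals marking matches to the motifs searched.
Lif: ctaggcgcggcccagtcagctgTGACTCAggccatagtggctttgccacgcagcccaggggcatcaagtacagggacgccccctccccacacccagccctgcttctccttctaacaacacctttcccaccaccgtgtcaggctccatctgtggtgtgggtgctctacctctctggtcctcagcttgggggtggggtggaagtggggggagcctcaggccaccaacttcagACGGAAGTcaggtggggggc

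Both strands were searched for 6 motifs. The AP-1 letters TGANTCA matched 1 time, as TGACTCA, beginning 228 bases before the start, and 6.75% of 32851 promoter windows of this length hold a match. The ETS-type letters ACGGAAGT matched 1 time, beginning 20 bases before the start, and 0.618% of the windows hold them. The STAT letters TTCNNNGAA, the ETS letters CCGGAAGT, TATAAA and the Sp1 letters GGGCGG had 0 matches here and were in 7.02%, 2.88%, 12.4% and 32.7% of the windows. No match overlapped another. The G and C content of the 250 bases was 63.6%, against a median of 52.4% over the windows. A match describes the letters and is not a binding site. Distances here are from the annotated start, which was not mapped onto the CAGE peak.

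Library depth was between 5884258 and 13977941 tags. Levels are in CPM, tags scaled to a common library total, and 1 tag was worth 0.0715 to 0.170 CPM. In 1 library the limit that a count of 0 allows, taken as 3 tags, lay between 0.215 and 0.510 CPM. A CAGE tag is read once per 5′ end, so levels of different peaks do not depend on transcript length. FLT3-ITD replicate 2 was the shallowest library and gave the fewest tags in the window, 33 against 64 and 73 in the other FLT3-ITD libraries. Tags were seen at 21 of the 26 peaks, 18 on the plus strand and 3 on the minus strand. In bulk samples, fewer expressing cells and less RNA per cell cannot be told apart.

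Over all 26 peaks the window held 6.24, 5.61 and 6.40 CPM in FLT3-ITD replicates 1, 2 and 3, and 97.3, 87.5 and 93.9 CPM in the double mutant. The groups did not overlap. The group means were 6.08 ± 0.42 and 92.9 ± 5.0 CPM (SD, n = 3 each). In pooled tags this was 170 against 3333, a depth-scaled ratio of 14.99 (exact 95% interval 12.8 to 17.6). This interval, like those below, covers counting error only. Plus-strand tags made up 95.7% ± 4.1 of the window in FLT3-ITD cells and 99.3% ± 0.077 in the double mutant.

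**Figure D1:**
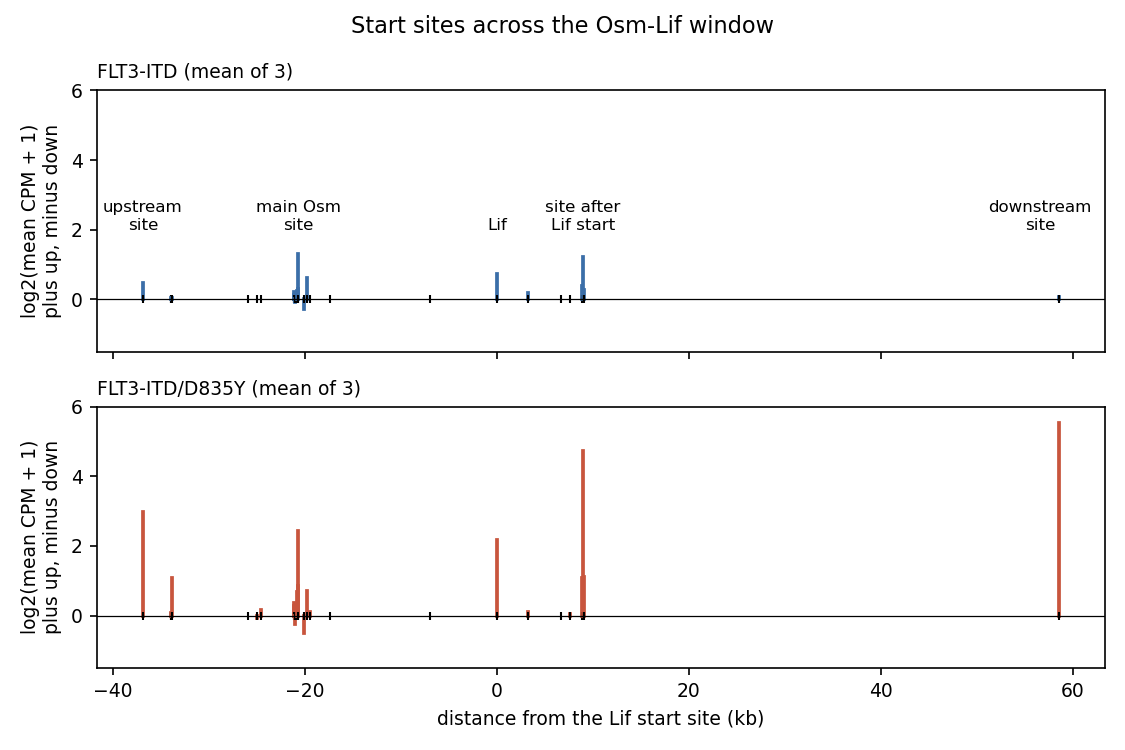
Mean level of each peak in FLT3-ITD cells (upper panel) and in the double mutant (lower panel), as log2(mean CPM + 1), against distance from the Lif start site in kb, with plus-strand peaks drawn upwards, minus-strand peaks downwards and ticks at all 26 listed peaks. The double mutant has its highest peak 58575 bp after the Lif start, where FLT3-ITD cells have almost no tags.

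Only 5 of the 26 peaks reached 1 CPM in at least 3 libraries, the minimum for a fit across the series. These were an upstream site at 4120705, the main Osm site at 4136864, the Lif start site at 4157584, a site at 4166528 after the Lif start, and the downstream site ending at 4216171. The main Osm site and the site at 4166528 would have passed on the FLT3-ITD libraries alone, while the other 3 passed only through the double mutant. In the fit with limma across 19162 peaks, 5 of these 5 were higher in the double mutant at an adjusted p under 0.05, where 14.1% of all tested peaks were. Since the window was chosen on this contrast and most of these peaks passed the minimum through the higher group, nothing is read from that count. The median difference of the 5 was 2.50 on the log2(CPM + 1) scale, with a range of 1.13 to 5.46, beside a median of 0.05 over all tested peaks.

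Osm had 5 plus-strand peaks within 1000 bp of the mm9 position given for the gene. Their summed level was 1.76, 2.55 and 2.11 CPM in FLT3-ITD replicates 1, 2 and 3 and 6.46, 6.22 and 6.23 CPM in the double mutant. Every double-mutant library lay above every FLT3-ITD library, and the double-mutant libraries differed little from one another. The means were 2.14 ± 0.40 and 6.30 ± 0.14 CPM (SD, n = 3 each). The pooled tags were 57 and 227, a ratio of 3.05 (exact 95% interval 2.27 to 4.15).

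The main Osm site, at 4136864 to 4136871, supplied most of these tags. Its level was 1.17, 1.70 and 1.58 CPM in FLT3-ITD replicates 1, 2 and 3. In the double mutant it was 4.20, 4.08 and 4.94 CPM. The groups did not overlap, and the difference was 1.13 on the log2(CPM + 1) scale. The pooled tags were 40 and 157, a ratio of 3.002 (exact 95% interval 2.11 to 4.36).

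The make-up of the Osm cluster was close in both groups. The main site held 70.2% of the pooled Osm tags in FLT3-ITD cells (exact 95% interval 56.6 to 81.6) and 69.2% in the double mutant (62.7 to 75.1). The sites at 4136802 and 4136826, 62 and 38 bp before it, held 7.02% and 10.5% in FLT3-ITD cells and 9.25% and 13.2% in the double mutant. The most upstream pair, at 4136414 and 4136445, about 0.4 kb before the main site, held 5.26% and 7.02% in FLT3-ITD cells against 3.52% and 4.85% in the double mutant. All of these intervals overlapped between the groups. The FLT3-ITD shares rest on 57 tags, so their intervals are wide.

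The minor Osm sites were sparse. The site at 4136826 had 2, 2 and 2 tags in the FLT3-ITD libraries and 14, 13 and 3 in the double mutant, where replicate 3 stood apart at 0.297 CPM against 1.17 and 0.930 CPM, inside the FLT3-ITD range. The site at 4136802 had 1, 2 and 1 tags against 5, 9 and 7, a ratio of 4.01 (exact 95% interval 1.35 to 16.1). At 4136414 and 4136445 the pooled tags were 3 against 8 and 4 against 11, and both intervals held 1.

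The Osm region also held a start site at which the groups overlapped. The plus-strand peak at 4137788, 924 bp after the main Osm site, had 0.780, 0.510 and 0.263 CPM in FLT3-ITD replicates 1, 2 and 3 and 0.839, 0.715 and 0.297 CPM in the double mutant. The mean was higher in the double mutant, at 0.617 against 0.518 CPM, but the libraries of the groups overlapped, and the ratio of pooled tags was 1.26 (14 against 23, exact 95% interval 0.620 to 2.64). The Osm gene is 4242 bp long in the GRCm38.p6 table. The upper bound of this interval lay above the lower bound for the main Osm site. The 2 ratios were not compared directly, so whether they differ beyond counting error was not tested.

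Minus-strand starts were few. The minus-strand peak at 4137529 had 3, 0 and 4 tags in the FLT3-ITD libraries and 5, 4 and 5 in the double mutant, a ratio of 1.53 (exact 95% interval 0.578 to 4.48). The minus-strand peak at 4136522, between the most upstream Osm sites and the main one, had 0, 0 and 2 tags against 2, 4 and 1. The third minus-strand peak with a tag, at 4132624, had 2 tags in all, both in the double mutant. Summed over the strand, the minus-strand means were 0.273 ± 0.26 CPM for FLT3-ITD and 0.641 ± 0.052 CPM for the double mutant (SD, n = 3 each). The summed levels of the groups did not overlap, while the interval of the ratio of pooled tags, 0.871 to 4.80, held 1.

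Within 1000 bp of its mm9 position Lif had 1 peak, at 4157584 to 4157595, 20720 bp after the main Osm site. Its level was 0.585, 0.850 and 0.526 CPM in FLT3-ITD replicates 1, 2 and 3. In the double mutant it was 3.69, 3.29 and 3.56 CPM. The groups did not overlap, and the means were 0.654 ± 0.17 and 3.51 ± 0.20 CPM (SD, n = 3 each). The FLT3-ITD values rest on 6, 5 and 6 tags. The pooled tags were 17 and 126, a ratio of 5.67 (exact 95% interval 3.40 to 10.0).

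The site after the Lif start lay 8944 bp downstream on the same strand, at 4166528 to 4166547. The Lif gene is 14947 bp long in the GRCm38.p6 table, and whether the site falls in an exon was not determined on mm9. In the FLT3-ITD libraries its level was 1.37, 1.19 and 1.49 CPM, above the Lif start site in each of them. In the double mutant it was 25.8, 23.1 and 28.4 CPM. The means were 1.35 ± 0.15 and 25.7 ± 2.6 CPM (SD, n = 3 each), and the ratio of pooled tags, 38 against 917, was 18.5 (exact 95% interval 13.3 to 26.2). That interval lay wholly above the one for the Lif start site.

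Smaller peaks flanked it on the plus strand. The peak at 4166484 had 2, 2 and 4 tags in the FLT3-ITD libraries and 15, 19 and 7 in the double mutant. The peak at 4166670 had 3, 0 and 4 tags against 13, 19 and 10. Within these 3 peaks, grouped after their values were seen, the site at 4166528 held 71.7% of the pooled tags in FLT3-ITD cells (exact 95% interval 57.7 to 83.2) and 91.7% in the double mutant (89.8 to 93.3). These intervals did not overlap. The peak at 4160826, nearer to the Lif start, was the only detected peak with a lower mean in the double mutant, with 4 pooled tags in FLT3-ITD cells and 3 in the double mutant.

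The upstream site at 4120705 to 4120745 lay 16159 bp before the main Osm site. In the FLT3-ITD libraries its level was 0.585, 0.170 and 0.439 CPM, resting on 6, 1 and 5 tags. In the double mutant it was 6.96, 7.44 and 6.13 CPM, above the main Osm site in each library. The pooled tags were 12 and 249, a ratio of 15.9 (exact 95% interval 8.92 to 31.1). A weaker plus-strand peak at 4123695 had 0, 0 and 1 tags against 10, 21 and 10. No gene was assigned to either. The nearest genes listed before Osm in the GRCm38.p6 table are, moving away from it, the pseudogene Gm11956, Castor1 and Tbc1d10a. Castor1 encodes an arginine sensor of the mTORC1 pathway.

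The downstream site, which ends at 4216171 and has a listed span of 12 bp, lay 58575 bp after the Lif start site on the same strand and had the highest level of the window in the double mutant. FLT3-ITD replicates 1 and 2 had 0 tags there and replicate 3 had 2. The double-mutant libraries had 592, 579 and 461 tags, which is 49.7, 41.4 and 45.6 CPM. That level was above 84.7% of the tested peaks by the double-mutant mean. By the FLT3-ITD mean, 0.324% of the tested peaks were lower. In the GRCm38.p6 table the nearest genes listed after Lif are the long non-coding RNA Gm11958, the small nuclear RNA gene Gm24803 and Hormad2. The site was assigned to none of them.

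**Figure D2:**
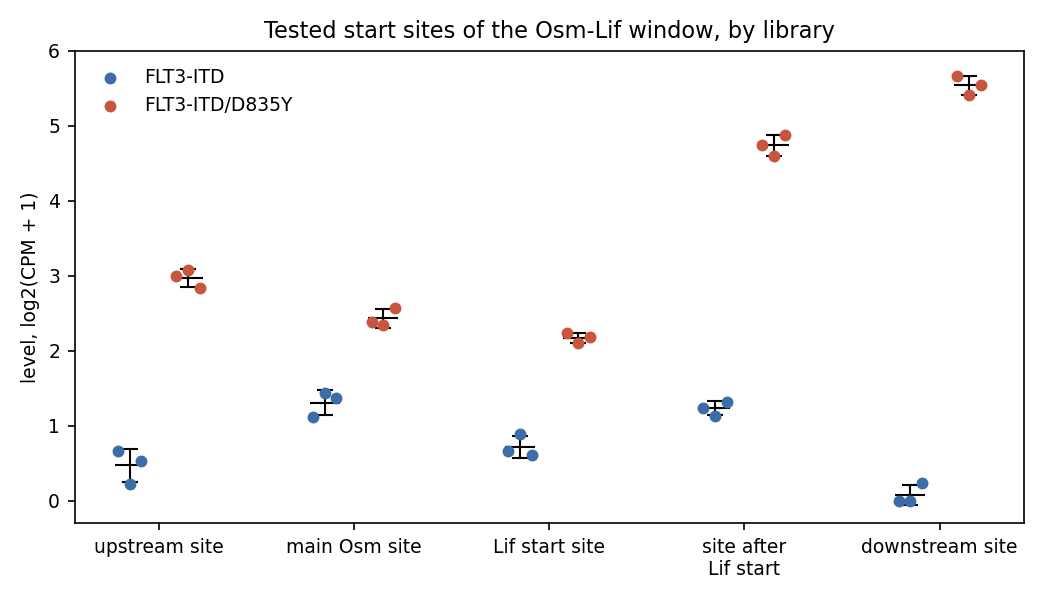
Level of each of the 5 tested start sites in each library, as log2(CPM + 1), with blue points for FLT3-ITD and red points for the double mutant (FLT3-ITD/D835Y), and bars for the mean and SD of 3 libraries. The groups are apart at every one of the 5 sites, by 1.13 at the main Osm site and by 5.46 at the downstream site.

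The order of the 5 sites differed between the groups. In the double mutant the downstream site was highest, followed by 4166528, the upstream site, the main Osm site and the Lif start site, and no neighbours in this order overlapped over the 3 libraries. In FLT3-ITD cells the main Osm site (1.17 to 1.70 CPM) and the site at 4166528 (1.19 to 1.49 CPM) overlapped. The Lif start site (0.526 to 0.850 CPM) followed, overlapping the upstream site (0.170 to 0.585 CPM), and the downstream site was lowest (0 to 0.175 CPM), overlapping the upstream site. The main Osm site shared the top of the order in FLT3-ITD cells and was next to last in the double mutant. The upstream, Lif and downstream sites passed the minimum only through the double mutant. Their lower place in FLT3-ITD cells is therefore tied to the filter, and nothing is read from the change of order.

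**Figure D3:**
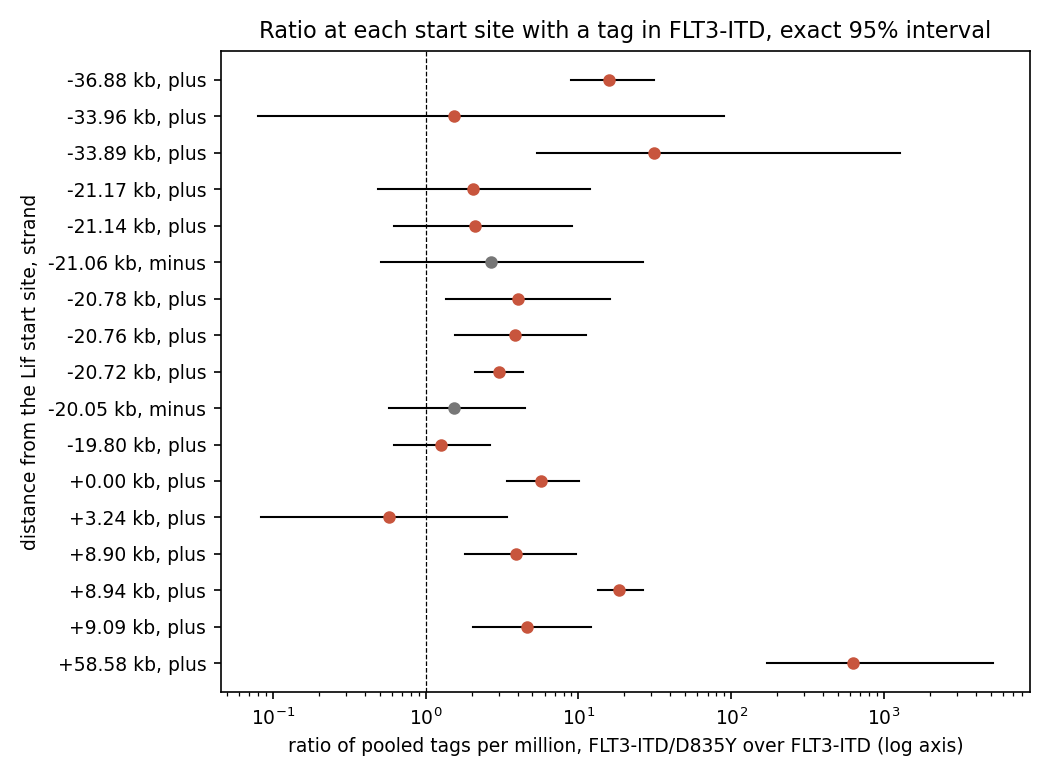
Depth-scaled ratio of pooled tags, double mutant over FLT3-ITD, on a log axis, for the 17 peaks with a tag in FLT3-ITD cells, ordered by distance from the Lif start site in kb and labelled by strand, with exact 95% intervals that cover counting error only. Red points are plus-strand peaks and grey points minus-strand peaks. Of the intervals, 10 lie above 1, all on the plus strand, and 7 hold 1. The share over all peaks of the series was not taken.

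Of the 17 peaks with a tag in FLT3-ITD cells, 10 had a ratio whose interval lay above 1, and 7 had one that held 1, 2 of these on the minus strand. The share of such intervals over all detected peaks of the series was not taken, so nothing is read from these counts. The other 4 detected peaks had 0 tags in FLT3-ITD cells and 1 to 4 pooled tags in the double mutant. The double mutant had the higher mean at 20 of the 21 detected peaks. How often this holds over all detected peaks was not counted, so nothing is read from it either. The groups did not overlap, with the double mutant higher, at 11 of the 21, where 13.1% of all 54470 detected peaks behaved so, and again nothing is read from this, since the contrast chose the window. The ratios were uneven along the locus. They were near 3 at the main Osm site, between 5 and 6 at the Lif start site, and over 15 at the upstream site and at 4166528. The downstream site, with 2 tags in pooled FLT3-ITD cells, gave 624 (exact 95% interval 172 to 5157). The interval of the Lif start site (3.40 to 10.0) overlapped that of the main Osm site (2.11 to 4.36). It also overlapped that of the upstream site (8.92 to 31.1). Overlap of separate intervals does not compare the ratios themselves. The ratios within these pairs were not compared directly.

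The make-up of the window differed accordingly. The 5 Osm sites held 35.5% ± 9.0 of its tags in FLT3-ITD cells and 6.79% ± 0.28 in double-mutant cells (SD, n = 3 each). The Lif start site held 10.9% ± 3.7 and 3.78% ± 0.017. The downstream site held 0.913% ± 1.6 in FLT3-ITD cells and 49.0% ± 1.9 in the double mutant. The 3 peaks around 4166528 held 30.4% ± 3.5 and 30.1% ± 1.6, a similar share in both groups. With the downstream site left out, their share of the remaining plus-strand tags was 32.3% ± 5.7 and 59.9% ± 3.1, and that of Osm was 37.3% ± 8.0 and 13.5% ± 0.37. The shares of FLT3-ITD libraries rest on 33 to 73 tags each and spread more than those of the double mutant, which rest on 950 to 1223.

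**Figure D4:**
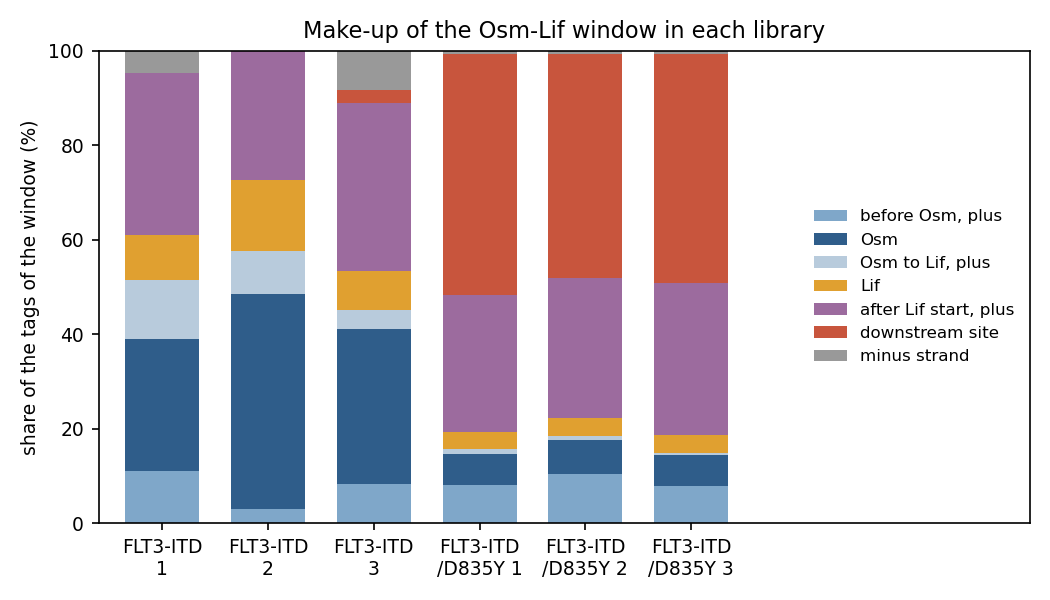
Share of the tags of the window, in percent, taken by each class of start site in each of the 6 libraries, stacked from 0 to 100. The downstream site (red) takes 47.3 to 51.0% in the double-mutant libraries and 0 to 2.74% in the FLT3-ITD libraries, while Osm (dark blue) takes 28.1 to 45.5% in FLT3-ITD and 6.63 to 7.11% in the double mutant.

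The 5 tested sites varied together over the 6 libraries, with Pearson's r of log2(CPM + 1) between 0.950 and 0.999 for their 10 pairs. These 6 libraries form 2 groups that were apart at every tested site, so r mostly carries that difference. Outside the window, the peaks most like the downstream site by the same measure, among 10248 peaks with a mean of at least 5 CPM, were on the minus strand of chromosome 7 at 135039092 (r = 0.999) and at 52347500 (r = 0.999), on the plus strand of chromosome 6 at 83095882 (r = 0.999), on the plus strand of chromosome 19 at 31038353 (r = 0.999) and on the minus strand of chromosome 15 at 78136068 (r = 0.999). All but the last were at or under 0.0585 CPM in FLT3-ITD cells, while that on chromosome 15 had 6.72 ± 1.0 CPM there against 60.3 ± 6.1 CPM (SD, n = 3 each). In all, 101 of the 10248 peaks had r above 0.99 with the downstream site. For the main Osm site it was 13, and the closest was the minus-strand peak of chromosome 8 at 97958662 (r = 0.999), with 13.7 ± 0.54 and 16.9 ± 0.45 CPM. The next were on the minus strand of chromosome 11 at 103205965 (r = 0.996), the plus strand of chromosome 2 at 125073445 (r = 0.995), the plus strand of chromosome 19 at 42593285 (r = 0.994) and the minus strand of chromosome 13 at 19403232 (r = 0.994). All these values of r describe the same 6 libraries.

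The window lay in a stretch with no other tested peak, from 4086868 to 4494753. The detected peak just outside its lower edge, at 4118258, had 1 tag in all, against 12 and 249 pooled tags at 4120705 just inside. The detected peak just outside its upper edge, on the plus strand at 4324093, had 0 tags in FLT3-ITD cells and 2, 2 and 5 in the double mutant, against 2 and 1632 pooled tags at the downstream site just inside. Of the 5 nearest tested peaks before the window, 0 were called in either direction, where 24.4% of all tested peaks were (limma adjusted p 0.32 to 0.87, with 0 at an unadjusted p under 0.05), and their differences lay between -0.31 and 0.28 on the log2 scale. Of the 5 nearest beyond it, 3 had an unadjusted p under 0.05 and 2 were called, both higher in the double mutant as 14.1% of all tested peaks were, by 0.36 (SE 0.11, limma adjusted p = 0.026) at 4537737 and by 0.66 (SE 0.19, adjusted p = 0.023) at 4749326. The nearest of them, at 4494753, differed by 0.51 (SE 0.19, limma adjusted p = 0.071). The differences at these 10 flanking peaks were all smaller than the 1.13 at the main Osm site, the smallest among the 5 tested sites of the window. Since the window was chosen on this contrast and the flanking peaks were not, nothing is read from that gap.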

How the data were processed

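The authors deposited 1 table per library with a CPM value for each of 158966 peaks, summing to 1000000. Per the labels' protocols the libraries were nAnT-iCAGE, a CAGE protocol without amplification or tagging. Per the submitters' processing notes TopHat2 2.0.14, edgeR 3.24.3, hg19 and mm9 were used, with no role stated; tag filters and peak calling are not given in the sources used here. All libraries were read alike, and 100% of their values were whole multiples, within 0.01, of the smallest value above 0, which gave the tag numbers. The window ran from 4120000 to 4220000, and the downstream site starts at 4216159. Coordinates are as deposited, and whether they count from 0 or 1 is not stated.

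Peaks with at least 1 CPM in at least 3 libraries were fitted with limma 3.58.1 (trend, robust; R 4.3.3) on log2(CPM + 1), with group as the only term and Benjamini-Hochberg adjustment over 19162 peaks at a threshold of 0.05. This scale understates differences of low peaks. Ratios of pooled tags carry exact (Clopper-Pearson) 95% intervals. Alternatives were a pseudocount of 0.5 or 0.1, no filter or a mean of at least 5 CPM, TMM and RLE scaling, edgeR 4.0.16 and DESeq2 1.42.0 on recovered tags, a replicate block, leaving out each library, and 5000 bp in place of 1000 bp around Osm and Lif. The rule for named peaks took every window peak past the filter, the 5 peaks most correlated with the window's highest peak and with the highest Osm peak, and those next to the window's edges. Members and lists were chosen with earlier results of these data known. A list of interleukin-6 family genes and lists of cell type markers were set aside, because no file gives gene names for peaks on mm9.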

Additional observations from a re-analysis of the deposited data

How the results depend on the processing

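Tag numbers limit the FLT3-ITD side of every ratio, since the window held 33 to 73 tags in those libraries. Each of the 5 tested sites was higher in the double mutant in all 13 refits (65 in all). Since the window was chosen on this contrast, nothing is read from that shared direction. Of the 65 differences, 45 moved by less than the spread between replicates, among them those of the replicate block, which are unchanged by construction. The other 20 came from the 0.5 and 0.1 pseudocounts, edgeR and DESeq2, each of which gave a larger difference. A smaller pseudocount does so by construction at low levels. With a pseudocount of 0.5 the summed difference was 1.38 for Osm, 1.81 for Lif and 3.83 for the window, and with 0.1 it was 1.53, 2.28 and 3.91, against 1.23, 1.45 and 3.73. Within 5000 bp in place of 1000 bp more peaks count. The Osm share was then 44.1% in FLT3-ITD cells and 7.66% in the double mutant, against 35.5% and 6.79%. The Lif share was 12.9% and 3.86%, against 10.9% and 3.78%. The summed difference was 1.15 for Osm and 1.37 for Lif. Leaving out single libraries gave summed differences of 1.14 to 1.32 for Osm, 1.40 to 1.54 for Lif and 3.68 to 3.77 for the window. It gave shares of 30.5 to 39.2% and 6.63 to 6.88% for Osm (FLT3-ITD, double mutant), 8.80 to 12.3% and 3.78 to 3.79% for Lif, and 0 to 1.37% and 47.9 to 49.8% for the downstream site. The called peaks of the window numbered 5 in each of these fits, 8 with no filter (21 tested) and 2 at a mean level of 5 CPM or more (2 tested). Over all peaks, 4680 (24.4% of those tested) were called in either direction, 5211 of 54470 (9.57%) with no filter, and 2916 of 10250 (28.4%) at a mean level of 5 CPM or more, where fewer peaks enter. A left-out library gave 3076 when it was FLT3-ITD replicate 2 and at most 5209, when it was replicate 2 of the double mutant, and the cause was not tested. With the replicate block 4109 were called over all peaks and 5 in the window. Libraries that share a number deviated from their group means with correlations of -0.01, 0.02 and 0.19, and 3 of 6 were closest to their own number, so no pairing was assumed. Since the replicate numbers are balanced over the groups, a block cannot change the summed differences (1.23, 1.45 and 3.73). It was not fitted to them.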
